A study of Mus musculus with 4 samples.

Results

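Channel genes are described here across the hours after foot shock in CA1, the hippocampal field of pyramidal neurons. They are the voltage-gated calcium and sodium channels, the Clcn chloride channels and exchangers, the Hcn pacemaker channels, the ryanodine and inositol trisphosphate receptors and the Trpc, Trpm and Trpv cation channels. Members were all probe sets whose single gene symbol begins with one of these family names. The rule itself uses no measured values, but it was chosen with earlier results of these data known. The rule found 55 probe sets of 39 genes among 10833 probe sets with 1 symbol and 12488 in all. It also takes in 2 symbols that are not channels, Scnm1, a splicing factor, and Trpc4ap, a protein that associates with a Trpc channel. The array reads each transcript with a set of several short probes, here called a probe set, and some genes have more than 1 such set.

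The series holds 4 arrays of total RNA, 1 at each of 1, 2, 4 and 6 h after the last shock. All groups share the treatment, in young male C57BL/6J mice: 3 shocks of 0.5 mA lasting 1 s each, with 2 min in a new chamber before each. The mice were also placed 2 h before training, at a place not given here. The labels name this shock alone and do not say how many animals were pooled. Unshocked mice were not analysed here, so no value has a baseline and times are compared among themselves.

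Voltage-gated calcium channels turn depolarization into calcium entry that drives transmitter release, dendritic spikes and gene transcription. Sodium channels carry the action potential, and Hcn channels set the resting excitability of pyramidal cell dendrites. Ryanodine and inositol trisphosphate receptors release calcium from the endoplasmic reticulum, which links synaptic activity to plasticity in CA1. Clcn proteins pass chloride, some at the cell surface and others, as exchangers with protons, on endosomes and lysosomes.

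With 1 array per time there is no replicate error, no test of significance was run, and precision is limited by the number of arrays. Values are intensities on a linear scale. An intensity of 100.8, the 40th percentile of all values on the 4 arrays, was used as a floor below which a value is only a bound. Intensities of different probe sets depend on how well each binds and do not rank their transcripts. Of 10 CA1 pyramidal marker genes on the array, 9 lay above the floor on all 4 arrays, and Camk2a, a kinase of excitatory neurons, at 1 h alone. The summed intensity of the 10 was 26328, 24656, 25484 and 24197 from 1 to 6 h. Its members differed in course, and 4 of the 9 had a range of at least 1.5-fold. Dcn read 5844, 3395, 2523 and 2915, Neurod6 768, 648, 1263 and 1089, and Wfs1 1709, 1637, 2608 and 2205. At 2 h the control probe sets for actin had a 3' to 5' ratio of 2.70, against 1.84, 1.79 and 1.74 at 1, 4 and 6 h. For Gapdh the ratio was above that of actin on every array, at 3.98, 4.82, 3.85 and 3.24 from 1 to 6 h. At 6 h the summed intensity of 7 choroid plexus genes was 8235, against 2026, 1641 and 2209 at 1, 2 and 4 h, and 3 of the 7 lay above the floor on all arrays. In bulk RNA, fewer cells of a type and less RNA per cell cannot be told apart.

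Channel probe sets above the floor on all 4 arrays had a median range between times close to that of all such probe sets. Of the 55 probe sets, 31 lay above the floor on all 4 arrays, 11 on some and 13 on none, where 51.9% of all 12422 probe sets other than controls lay above it on all 4 and 30.9% on none. The 11 that crossed the floor have only bounds, the largest at least 3.32-fold for Clcn1. They are not in the ratios of highest to lowest array. The 31 belong to 22 of the 39 genes. Their highest array exceeded their lowest by a median of 1.29-fold, and over all 6442 probe sets above the floor it did so by 1.32-fold. Among the 31 this ratio ran from 1.07 for Clcn4 to 2.12 for Cacna1g. It reached 1.5-fold in 6 of the 31, against 27.9% of all probe sets, and 2-fold in 1, against 6.33%. The 6 were single probe sets of Cacna1g, Cacna2d1, Clcn3, Clcn7, Hcn2 and Itpr2. Without the 6 h array 3 of the 31 reached 1.5-fold (Cacna1g, Clcn3 and Itpr2), against 19.6% of all, and without the 4 h array also 3 (Cacna1g, Clcn7 and Hcn2), against 20.3%.

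**Figure D1:**
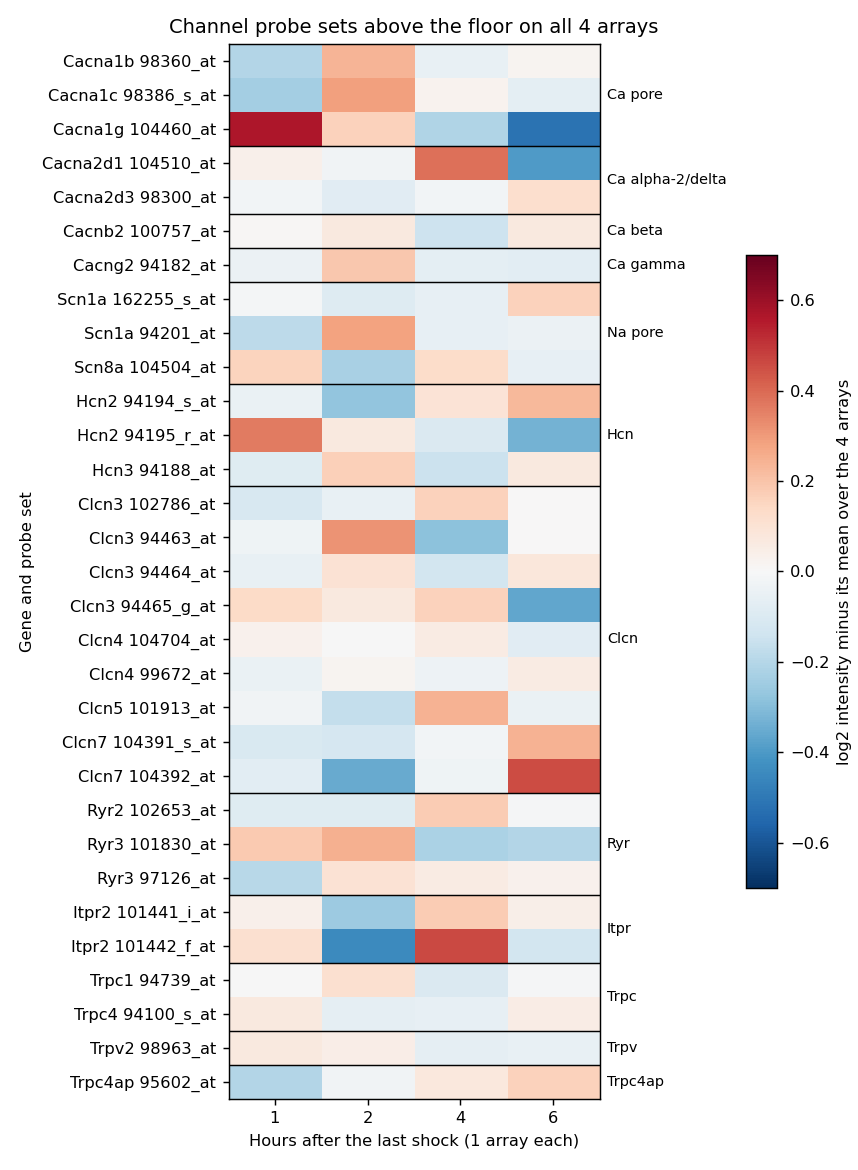
Each channel probe set above the floor on all 4 arrays (rows, grouped by family) at 1, 2, 4 and 6 h (columns); colour is the log2 intensity minus the mean of that probe set over the 4 arrays, with 1 array per time and no error. Most rows are pale, and the strongest colours are in Cacna1g, the Itpr2 set 101442_f_at, Cacna2d1 and the Clcn7 set 104392_at.

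No single time set the channels apart. For each of the 4 arrays, 0 of the 31 probe sets exceeded all 3 others by 1.5-fold or more, and 0 lay below all 3 by that much. Among all probe sets the shares that did so upward at 1, 2, 4 and 6 h were 0.574%, 1.18%, 0.202% and 0.326%. Downward they were 0.931%, 1.12%, 1.01% and 1.16% in the same order. With shares this small, a count of 0 among 31 is near the background. Relative to the mean of the other 3 times, the median log2 difference of the 31 from 1 to 6 h was -0.04, 0.03, -0.04 and 0.00026. Over all probe sets above the floor it was 0.01, 0.01, -0.0031 and -0.0019. Of the 31, 12, 16, 13 and 16 lay above the other times from 1 to 6 h, against 52.4%, 52.0%, 49.4% and 49.6% of all probe sets.

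**Figure D2:**
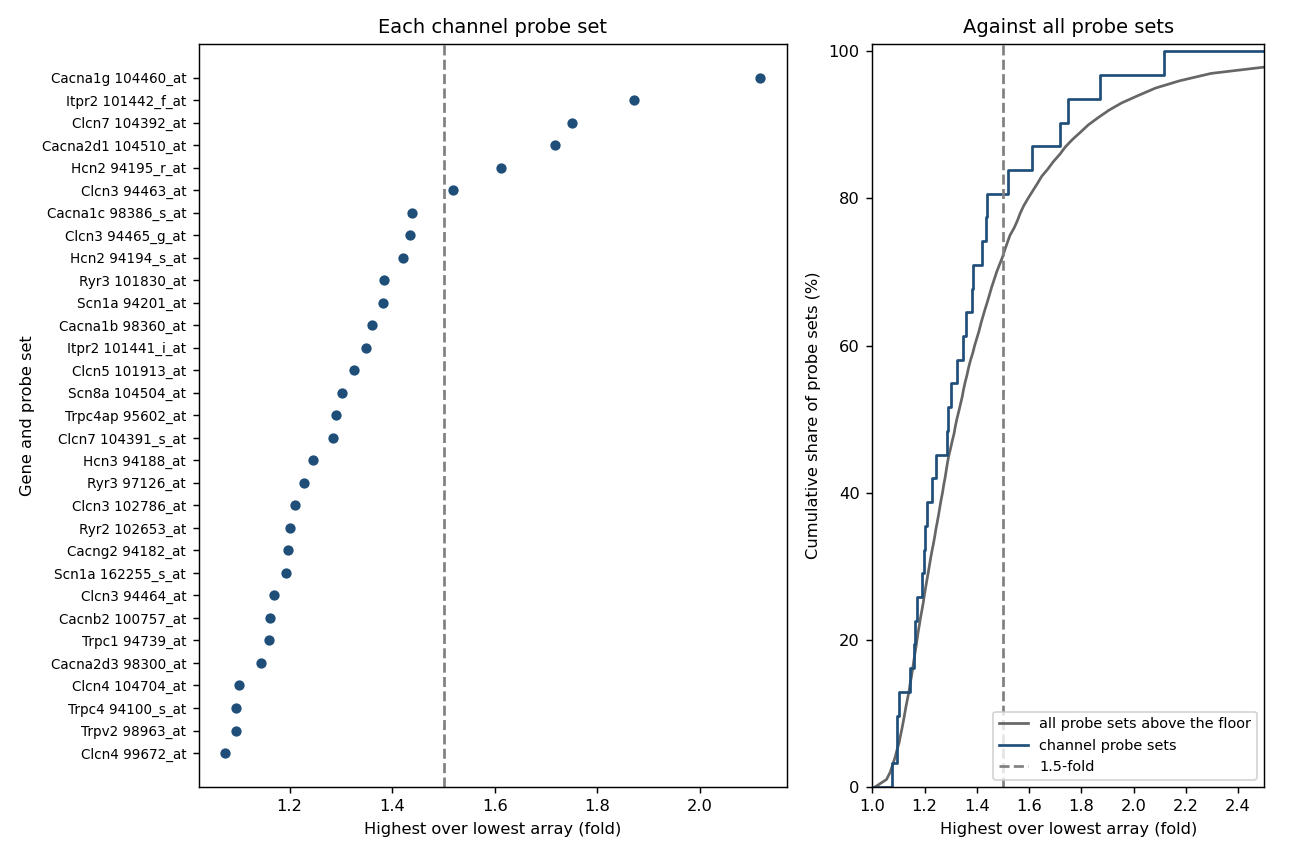
Left, the highest over the lowest of the 4 arrays for each of the 31 channel probe sets; right, the cumulative share of the channel probe sets and of all 6442 probe sets above the floor at or under each ratio. The dashed line marks 1.5-fold, which 6 channel probe sets exceed.

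Between pairs of times, differences of at least 1.5-fold were also few. At 2 h against 1 h, 0 of the 33 probe sets above the floor on both arrays were higher and 0 lower, where the shares over all probe sets were 5.59% and 4.84%. At 4 h against 1 h, 0 of 32 were higher and 1 lower (Cacna1g), against 3.38% and 5.33%. At 6 h against 1 h, 0 of 33 were higher and 2 lower (Cacna1g and Hcn2), against 3.76% and 5.82%. The comparison of 4 h with 2 h gave 1 of 31 higher (Itpr2) and 1 lower (Clcn3), against 4.46% and 6.95%. The comparison of 6 h with 2 h gave 1 of 34 higher (Clcn7) and 1 lower (Cacna1g), against 4.59% and 7.12%. At 6 h against 4 h, 0 of 32 were higher and 2 lower (Cacna2d1 and Itpr2), against 3.93% and 4.12%. These pairs share arrays, so the 2 higher and 7 lower differences are not separate evidence. After scaling to a common median the split was 4 higher and 5 lower, of which 6 were among the first 9. The calls for Clcn3 at 4 h over 2 h (log2 -0.50), Cacna1g at 6 h over 2 h (-0.56) and Itpr2 at 6 h over 4 h (-0.57) then fell short of 1.5-fold. The 3 gained were Itpr2 at 2 h over 1 h, Clcn7 at 6 h over 1 h and the Hcn2 set 94194_s_at at 6 h over 2 h. Quantile normalization kept 7 of the 9 and lost the Clcn3 (-0.53) and Itpr2 (-0.56) calls named above.

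Among the pore subunits of voltage-gated calcium channels, Cacna1g had the largest range of the 31 channel probe sets above the floor on all 4 arrays. It encodes the low-voltage-activated T-type channel that supports burst firing and is best known from thalamic relay neurons. From 1 to 6 h it read 413, 312, 241 and 195. Each later array was lower than the one before, to 2.12-fold below 1 h at 6 h, 1.71-fold at 4 h and 1.32-fold at 2 h. Lower values at each later time were shown by 2 of the 31 channel probe sets, against 4.86% of all, and the other was a probe set of Hcn2. Of 6 thalamic marker genes, 5 are on the array, all above the floor at all times, and their summed intensity was 1655, 2219, 1846 and 1590. Within that list Lef1 was also lower at each later time, at 574, 507, 366 and 336, while Tcf7l2 read 121, 494, 471 and 359. Their part in the course of Cacna1g was not tested.

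Cacna1b, the N-type channel of presynaptic terminals, read 360, 490, 400 and 420 from 1 to 6 h. Cacna1c, the main L-type channel of CA1 neurons and a route from depolarization to transcription, read 378, 544, 453 and 425. Both were lowest at 1 h and highest at 2 h, where Cacna1b was 1.36-fold and Cacna1c 1.44-fold above 1 h, short of the 1.5-fold limit. The 2 h array is the one with the actin ratio of 2.70, and the part of RNA quality in these values was not tested. Cacna1a, the P/Q-type channel of fast synapses, read 188, 37.9, 196 and 181. Its 2 h value lay below the floor, which makes it at least 1.80-fold lower there than elsewhere, and at 1, 4 and 6 h its values were close together. Cacna1e, the R-type channel, and Cacna1h, another T-type channel, were below the floor on all 4 arrays, with both probe sets of Cacna1e between 9.81 and 85.3 and Cacna1h between 19.3 and 30.4. Cacna1s, the skeletal muscle L-type channel, was just above the floor at 1 h, at 105, and below it at the other times.

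The auxiliary calcium channel subunits traffic the pore to the membrane and shape its gating. Cacna2d1, an alpha-2/delta subunit bound by gabapentin, read 588, 563, 750 and 437. It was highest at 4 h and lowest at 6 h, a difference of 1.72-fold between neighbouring times, and the 1 h and 2 h values lay between. Cacna2d3, a second alpha-2/delta subunit, was among the steadiest members, at 1737, 1669, 1739 and 1910. Cacnb2, a cytoplasmic beta subunit, read 382, 398, 343 and 398, a range of 1.16-fold. Cacng2, known as stargazin, acts mainly as a trafficking subunit of AMPA receptors and read 768, 900, 754 and 752. Its 2 h value exceeded that at 1 h by 1.17-fold, and its other 3 values were nearly equal. Cacng1, the gamma subunit of skeletal muscle, was above the floor at 2 h alone, at 139.

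The sodium channel pore subunits showed few differences between times. Scn1a, the channel associated with fast-spiking interneurons, was read by a pair of probe sets. One read 1407, 1334, 1365 and 1590, highest at 6 h, and the other 489, 676, 535 and 541, highest at 2 h. They thus went opposite ways between 1 h and 2 h, by 1.05-fold down and 1.38-fold up. Scn8a, the channel of the axon initial segment and nodes of Ranvier, read 343, 263, 337 and 297, lowest at 2 h with a range of 1.30-fold, and its other probe set was below the floor on all arrays. Scn3a, mainly an embryonic subunit, Scn7a, a sodium-sensing relative, and Scn9a and Scn10a, channels of sensory neurons, were below the floor on all 4 arrays, with values from 2.40 to 34.6. The splicing factor Scnm1 was above the floor at 1 h alone, at 113.

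The Hcn channels open on hyperpolarization and let pyramidal dendrites damp and time synaptic input. Hcn2 was read by a pair of probe sets designed on the same GenBank record. The probe set 94195_r_at, of a type for which the usual probe selection rules were relaxed, read 3158, 2581, 2289 and 1958, lower at each later time and 1.61-fold lower at 6 h than at 1 h. The probe set 94194_s_at read 1698, 1448, 1874 and 2057, and its 6 h value exceeded that at 1 h by 1.21-fold. Between 2 h and 6 h the first was lower by 1.32-fold and the second higher by 1.42-fold, so no direction for Hcn2 holds in both. Hcn3 read 645, 767, 616 and 718, highest at 2 h with a range of 1.24-fold.

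The Clcn family was read by 13 probe sets of 6 genes, of which 9 probe sets of 4 genes lay above the floor on all arrays. Clcn7, the chloride and proton exchanger of lysosomes, was highest at 6 h in both of its probe sets. One read 494, 490, 525 and 629 and the other 211, 174, 217 and 304 from 1 to 6 h. At 6 h they stood 1.28-fold and 1.75-fold above 2 h, and 1.20-fold and 1.40-fold above 4 h, their next highest time. This array is the one with a summed choroid plexus intensity of 8235, of which Ttr alone gave 4482. The part of that tissue in the Clcn7 values was not tested.

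Clcn3, an exchanger of endosomes and synaptic vesicles, was read by 4 probe sets that did not share a course. The set 102786_at read 3872, 4050, 4688 and 4197, and the set 94465_g_at read 508, 485, 516 and 360, both highest at 4 h. The set 94464_at read 1184, 1315, 1124 and 1295, and the set 94463_at read 307, 390, 257 and 314, both highest at 2 h and lowest at 4 h. Between 2 h and 4 h the last of these was 1.52-fold lower, a difference under 1.5-fold after common median scaling or quantile normalization, while 102786_at was 1.16-fold higher. Clcn4, an endosomal relative, differed little between times in both probe sets. They read 2423, 2536, 2435 and 2605, a range of 1.07-fold, and 969, 948, 989 and 899, a range of 1.10-fold.

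Clcn5, the endosomal exchanger mutated in Dent disease, read 185, 168, 223 and 182 in its brighter probe set, highest at 4 h. Its other probe set differed, above the floor at 1 h and 2 h, at 150 and 123, and below it at 4 h and 6 h. Clcn2, a plasma membrane channel, crossed the floor too, at 93.6, 139, 28.0 and 116. Clcn1, the chloride channel of skeletal muscle, read 335 at 2 h, at least 3.32-fold above the floor, and was below the floor at 96.5, 64.8 and 53.8 at 1, 4 and 6 h. Its second probe set, between 10.9 and 56.7, was below the floor on all 4 arrays, 2 h included. The actin ratio was 2.70 on that array, and the part of RNA quality in the higher reading was not tested.

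**Figure D3:**
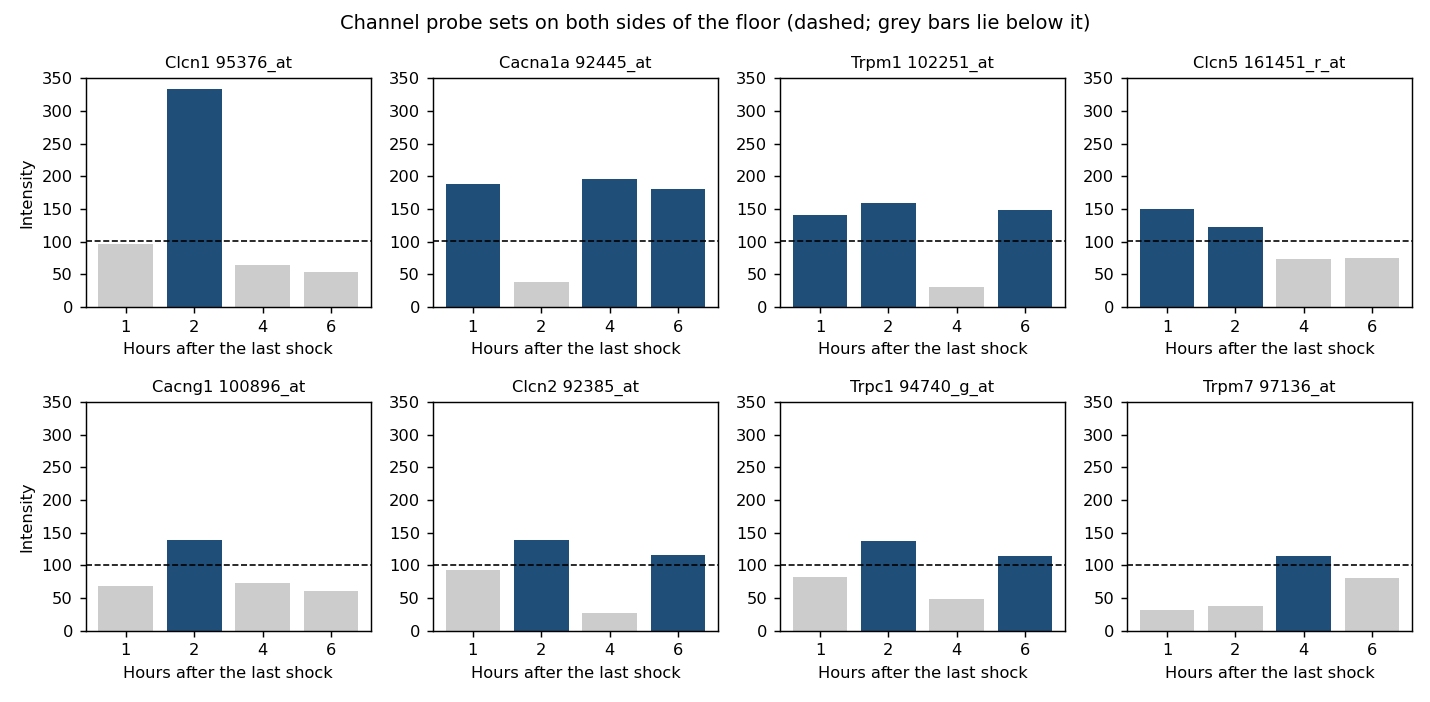
Intensity on the 4 arrays (bars from 0) for the 8 channel probe sets with the highest values relative to the floor among those that cross it; the dashed line is the floor of 100.8 and grey bars lie below it. Clcn1 rises above it at 2 h alone, at 335, and Cacna1a lies below it at 2 h alone, at 37.9.

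Among the calcium release channels, Ryr2, the ryanodine receptor most associated with heart and brain, read 773, 775, 928 and 815. It was highest at 4 h, 1.20-fold above 1 h. Ryr3, a receptor enriched in hippocampus, was read by a pair of probe sets, at 289, 302, 218 and 221 and at 292, 358, 348 and 341. Both were highest at 2 h, but the first was lower at 4 h than at 1 h and the second higher. Ryr1, the skeletal muscle receptor, was below the floor on all 4 arrays, between 67.0 and 87.8.

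Itpr2, an inositol trisphosphate receptor known mainly from astrocytes and secretory cells, had the largest range of the release channels above the floor on all 4 arrays. Of its 4 probe sets, the pair designed on the same GenBank record was above the floor and the other pair, between 5.81 and 35.1, was below it on all 4 arrays. The set 101442_f_at read 472, 321, 601 and 400, and the set 101441_i_at read 862, 704, 950 and 863. Both were lowest at 2 h, on the array with the actin ratio of 2.70, and highest at 4 h, by 1.87-fold and 1.35-fold. The suffix f marks a set whose probes match a family of sequences and i one with fewer probes than usual. Between 4 h and 6 h the first was lower by 1.5-fold and the second by 1.10-fold, the first short of 1.5-fold after common median scaling or quantile normalization.

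Itpr2 and Cacna2d1 were the 2 genes with a 1.5-fold range that were highest at 4 h, and for this reason the 250 bases before their annotated starts are shown, 5' to 3' on the gene's strand, from RefSeq on GRCm38.p6. The Cacna2d1 window is chr5:15934441-15934690 on the plus strand and that of Itpr2 is chr6:146502224-146502473 on the minus strand. Capitals mark the GC box, GGGCGG on either strand.
Cacna2d1: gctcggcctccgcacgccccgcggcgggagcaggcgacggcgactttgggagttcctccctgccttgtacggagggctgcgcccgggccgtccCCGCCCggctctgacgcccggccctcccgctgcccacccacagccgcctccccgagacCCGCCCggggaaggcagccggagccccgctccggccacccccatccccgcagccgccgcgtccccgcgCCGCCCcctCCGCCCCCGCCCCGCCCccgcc
Itpr2: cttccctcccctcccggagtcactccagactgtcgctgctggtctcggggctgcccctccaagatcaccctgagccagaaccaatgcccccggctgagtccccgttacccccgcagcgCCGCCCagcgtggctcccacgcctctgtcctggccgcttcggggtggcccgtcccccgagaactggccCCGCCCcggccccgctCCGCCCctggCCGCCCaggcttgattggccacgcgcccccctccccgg
GC boxes, overlapping ones included, numbered 6 in the Cacna2d1 window and 4 in that of Itpr2, and G and C made up 82.4% and 74.4% of the bases. The median share of G and C was 56.8% over the channel windows and 52.4% over all windows. Windows with at least 4 made up 4.09% of all 32851 promoter windows in the table, and 4 of the 42 windows found for 31 of the 39 channel genes. At least 1 GC box was present in 16 of the 42 channel windows and in 32.7% of all. The cyclic AMP response element, TGACGTCA, was present on either strand in 1 of the 42 channel windows, that of Clcn4, and in 1.55% of all windows. An E-box with the letters CACGTG was present in 4 of the 42 and in 6.02% of all. The letters of a TATA box, TATAAA, were present in 3 of the 42 and in 12.4% of all. Neither printed window held any of these. A match is a description of letters and not of binding, and its absence concerns these windows alone.

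The Trp channels are cation channels gated by phospholipase C signalling, lipids or temperature. Their probe sets above the floor on all 4 arrays, of Trpc4, Trpc1 and Trpv2, had ranges of at most 1.16-fold, while others crossed the floor. Trpc4, prominent in limbic neurons, read 1307, 1193, 1199 and 1295, a range of 1.10-fold. Trpc1, a subunit that joins other Trpc proteins, read 342, 370, 319 and 341 in its brighter probe set. Its other set crossed the floor, at 82.5, 137, 48.0 and 115, above it at 2 h and 6 h. Trpv2 read 355, 351, 325 and 327, a range of 1.09-fold.

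The other Trp channels were below the floor on at least 1 array. Trpc5 lay close to it, between 93.5 and 104, and Trpc6, a channel of dentate granule cells, was below it at all times, between 2.90 and 34.4. Trpm1, best known from retinal bipolar cells, read 140, 159, 30.6 and 148, so its 4 h value was lower than the others by at least 1.39-fold. Trpm7, a channel fused to a kinase, was above the floor at 4 h alone, at 115. Trpc4ap, which is no channel but part of a ubiquitin ligase complex, lay above the floor on all 4 arrays and read 2764, 3139, 3354 and 3566, higher at each later time and 1.29-fold above 1 h at 6 h. It was 1 of 31 with such a course, against 3.9% of all probe sets.

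Probe sets of the same gene often gave different courses, which bears on how far a single probe set can be read. For 7 genes more than 1 probe set lay above the floor on all 4 arrays, 16 probe sets in all. In 3 of the 7 (Clcn7, Itpr2 and Ryr3) the probe sets were highest at the same time, and in 2 (Clcn7 and Itpr2) also lowest at the same time. In 5 of the 7 they lay on both sides of no change at 6 h against 1 h: Clcn3, Clcn4, Hcn2, Itpr2 and Ryr3. Cacna1g and Cacna2d1 have 1 probe set each, so their courses have no such second reading. A second probe set reads the same RNA and does not stand in for another animal.

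**Figure D4:**
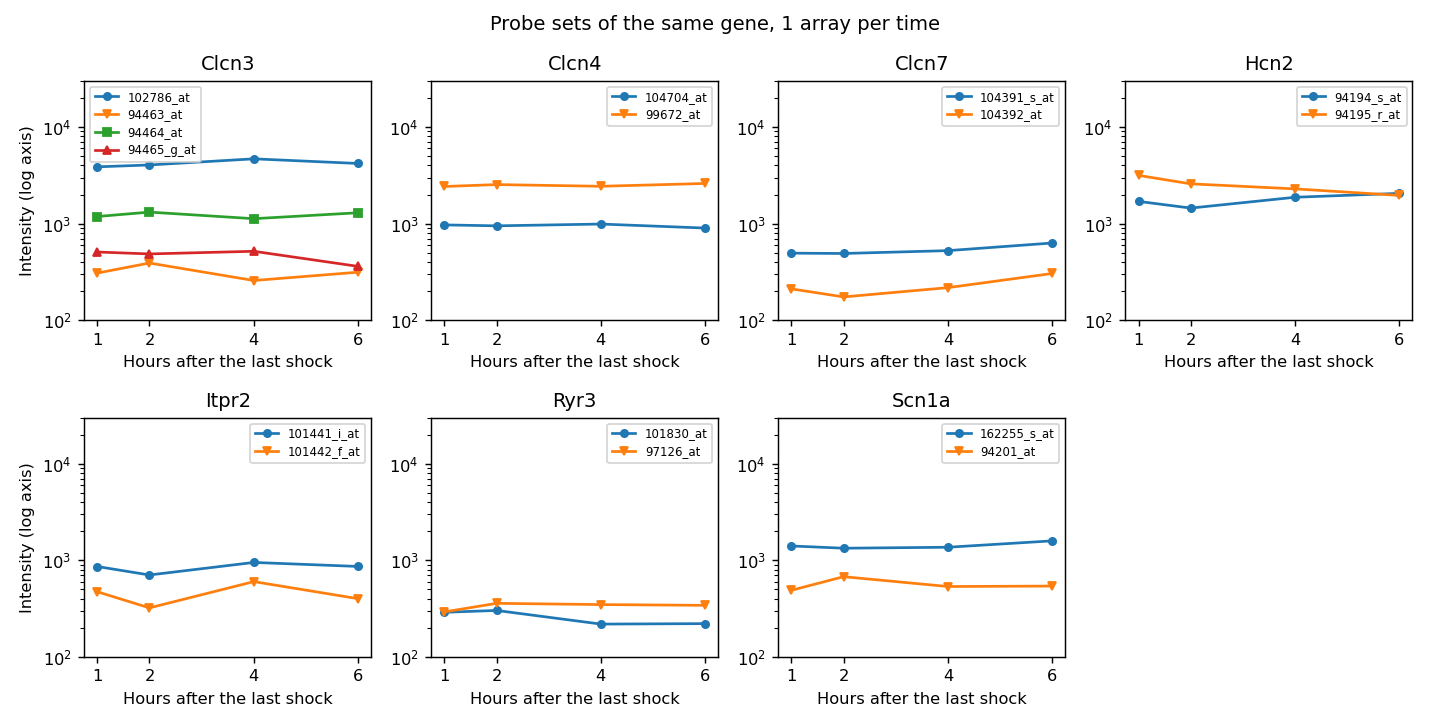
Intensity (log axis) against hours after the last shock for the 7 channel genes with more than 1 probe set above the floor on all 4 arrays; each line is 1 probe set, with 1 array per time and no error. The lines of Clcn7, and those of Itpr2, share the times of their highest and lowest values, while the Hcn2 lines cross, from 3158 and 1698 at 1 h to 1958 and 2057 at 6 h.

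Partner genes, which bind, regulate or offset these channels, gave like counts. Of 51 partner genes on the array, 42 lay above the floor on all 4 arrays, and 10 of these had a range of at least 1.5-fold, against 27.9% of all probe sets. By at least 1.5-fold against each other array, 1 of the 42 was higher at 2 h (Atp2a1), where 1.18% of all probe sets were, and 1 higher at 6 h (Stac), where 0.326% were. Atp2a1, a calcium pump of the sarcoplasmic reticulum, read 148, 342, 203 and 151, on an array with the actin ratio of 2.70 at its peak. Stac, which binds L-type calcium channels, read 134, 142, 138 and 226. Among the calcium pumps and exchangers, 3 of 6 had a 1.5-fold range. Atp2b2, a plasma membrane calcium pump, read 555, 516, 334 and 269, lower at each later time, as were 4.86% of all probe sets.

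In each of the other partner lists 1 or 2 members reached that range. Of 11 release channel partners above the floor, 2 had a 1.5-fold range: Hrc, a luminal calcium-binding protein, at 201, 268, 235 and 141, and Casq1, a calsequestrin, at 226, 274, 344 and 401. Of 8 sodium channel partners above the floor 1 did, Fgf13, which binds the channel's tail, at 243, 222, 162 and 183. Ank3, the ankyrin that anchors sodium channels at the axon initial segment, had a range of 1.22-fold. Of 8 chloride transporters and regulators 1 did, Slc12a5, the potassium chloride cotransporter that keeps neuronal chloride low, at 174, 232, 140 and 135. Slc12a2, which loads cells with chloride and is high in choroid plexus, read 979, 918, 902 and 1324 and was highest on the 6 h array. Of 5 calcium channel partners above the floor 1 did, Stac, and of 4 Hcn and Trp partners 2 did, Pkd1 at 303, 332, 176 and 262 and Plcg1 at 308, 427, 260 and 234.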

How the data were processed

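Total RNA from CA1 was measured on 4 arrays, 1 per time. The deposited values are linear intensities that the authors had already brought to a common level: without the top and bottom 2%, their mean was 500.3 on all 4 arrays. The authors' software and detection calls are not stated in the labels. Median deposited intensities ran from 159 to 172. Each array was rescaled to 1 such trimmed mean over probe sets other than the 66 controls, with factors from 0.999 to 1.001, and values of at most 100.8 were treated as bounds. Log2 differences, counts past 1.5-fold and ratios of the highest to the lowest array were then taken, with no test. Gene names came from GEO's platform annotation; all 55 channel probe sets matched RefSeq by gene identifier with 0 symbols changed. Other probe sets with several symbols (396) or none (1193) were not named. For each of 6 partner and 11 cell type lists, the probe set with the highest mean stood for a gene; the text gives the partner lists, and the CA1, choroid plexus and thalamic lists among the latter.

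Values on all 4 arrays are given for members with a range of at least 1.5-fold, the largest range in each family, genes with several probe sets, the steadiest (under 1.15-fold) and up to 5 bounds; the other members' values were added after they were seen. The members and lists were chosen with earlier results of these data known. Scaling and the call of a probe set apart at a single time were tested on simulated arrays. The changes put in were larger than any channel range above the floor seen here. Pair differences, ranges and one-way courses were not tested in this way. Alternatives covered scaling, floor, fold limit, choice of probe sets and arrays left out. The computations used Python 3.11.15, NumPy 2.4.6, SciPy 1.17.1, pandas 2.3.3 and matplotlib 3.10.9.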

Additional observations from a re-analysis of the deposited data

How the results depend on the processing

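The 4 medians moved by at most 0.1 on the log2 scale under each alternative. The 31 probe sets above the floor and the 3 one-way courses stayed within 1.5 times under all alternatives run. No member was apart at 1 time under the 3 other scalings, a higher floor, at the 60th percentile, the 2-fold limit or either choice of probe sets, but 6 were with a lower floor, at the 20th percentile, and 6 at the lower fold limit, and 0 to 1 when an array was left out (Itpr2 without 1 h, Cacna1g without 2 h or 4 h). The 9 pair differences became 42 and 4 under the lower and higher floors, 5 with 1 probe set a gene, 44 at the lower fold limit and 1 at 2-fold. The 6 members with a 1.5-fold range became 14 and 3 under the same floors, 3 with 1 probe set a gene, 17 at the lower fold limit and 1 at 2-fold. Leaving out an array, an alternative added after seeing the data, gave 3 to 5. With each array set to a common median, the median of all probe sets at 6 h over 2 h shifted by 0.11 (log2); printed differences are those of the main scaling. No paired analysis was possible because each time has 1 array. A lower floor compares dimmer probe sets too, by construction; other causes were not tested, and signal near the floor limits what can be counted.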
